A study of Mus musculus with 4 samples.

Results

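The ephrins are the membrane-bound ligands of the Eph receptor tyrosine kinases. The 8 mouse ephrin genes, Efna1 to Efna5 and Efnb1 to Efnb3, were taken as a family by gene symbol from the 51826 gene identifiers in a table of read counts, and all 8 were present. The members themselves were chosen by gene name, but the family was selected on knowledge of its GDF10 fold changes in these same libraries, so its values in that contrast are given as a description and not as a test. The counts came from RNA sequencing of C2C12 cells, a mouse myoblast line that divides in growth medium and can form myotubes. 2 libraries came from cells given recombinant GDF10 (also called BMP3b), one of the secreted TGF-beta family ligands, and 2 from cells given vehicle, all for 6 h in growth medium. The GDF10 dose and the make-up of the vehicle were not given in the sources used here. Both groups are 1 unmodified line, and the design text calls the libraries biological replicates without naming separate cultures, so every error below measures the spread between these 4 libraries.

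Ephrins fall into 2 classes. Ephrin-A proteins are held on the outer membrane by a glycosylphosphatidylinositol (GPI) lipid anchor and mostly bind EphA receptors, whereas ephrin-B proteins span the membrane, mostly bind EphB receptors and carry a short cytoplasmic tail that recruits adaptors. Signals run in both directions when cells touch: forward through the kinase of the Eph-bearing cell and in reverse through the ephrin-bearing cell, and they commonly lead to repulsion, sorting or changes of the actin skeleton. In muscle, ephrins and Ephs are known for guiding motor axons to their target fibres and for steering migrating muscle precursors and satellite cells.

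Total counts were 29944193 to 35057429 in the GDF10 libraries and 29641165 to 35597310 in the vehicle libraries, and 3 counts in a library correspond to 0.0843 to 0.101 CPM. CPM is the usual count scaled by library size, here with library sizes adjusted by TMM, whose factors were 0.995 to 1.004. The 10 markers listed for myoblasts summed to 2588 to 2618 CPM in the GDF10 libraries and 2545 to 2558 CPM in the vehicle libraries. Pax7, the defining transcription factor of muscle stem cells, had 0 counts in all 4 libraries, although a label calls the cells muscle stem cells, while Myod1 had 1723 and 1982 counts with GDF10 and 1914 and 1634 with vehicle. Markers of endothelial cells summed to 2.30 to 2.87 CPM with GDF10 and 2.16 to 2.43 CPM with vehicle, and those of neurons and Schwann cells to 3.77 to 6.19 and 5.43 to 5.71 CPM. Those of leukocytes and blood summed to 7.28 to 8.80 CPM with GDF10 and 7.19 to 7.64 CPM with vehicle. Fibroblast markers, mostly Col3a1 and Col1a1, summed to 4098 to 4451 CPM with GDF10 and 3843 to 4190 CPM with vehicle. The other members of that list were far lower. Pdgfra averaged 60.8 CPM with GDF10 and 61.3 CPM with vehicle, and Dcn 30.7 and 33.3 CPM. Thy1 and Lum had at most 1 and 2 counts in a library. The 8 genes of differentiated muscle, mostly Acta1, summed to 221 to 228 CPM with GDF10 and 179 to 203 CPM with vehicle. Acta1 averaged 147 CPM with GDF10 and 122 CPM with vehicle, and Myog 32.0 and 23.8 CPM. Myh3, at 14.2 CPM with GDF10 and 17.1 CPM with vehicle, was the only tested gene of this set with a negative log2 fold change. Myh4, with at most 4 counts in a library, was not tested, and edgeR called 0 of the other genes of this set. The part of both marker sets in the values below was not tested. These are bulk libraries, in which fewer cells making an ephrin and less RNA per cell cannot be told apart.

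All 8 ephrins were detected in all 4 libraries, at mean levels per length that ran from 0.954 to 40.8 TPM, the count scaled by exon length and then to the same total in every library. Efna1 was lower with GDF10, by 1.77-fold, and was the only ephrin whose 95% interval did not include 0 in the edgeR fit. The other 7 ephrins had log2 fold changes between -0.15 and 0.67, each with a 95% interval that included 0. In edgeR's quasi-likelihood test over 15467 genes, 0 of the 8 ephrins were among the genes called at an adjusted p under 0.05 (Benjamini-Hochberg), where 0.162% of all genes tested were, 0.084% higher and 0.0776% lower. 1 ephrin, Efna1, had an unadjusted p under 0.05, as had 5.94% of all genes tested. With DESeq2, 1 of the 8 was called, Efna1 again, where 0.42% of all genes were. The median log2 fold change was -0.08 over the 8 ephrins and 0.0029 over all genes tested; the ephrin median was -0.0086 without GDF10 replicate 2 and 0.02 without vehicle replicate 1. In 2 of the 8, Efna1 and Efnb2, both GDF10 libraries lay below both vehicle libraries, an arrangement found in 19.4% of all genes tested. In 0 of the 8 did both lie above, as they did in 18.8% of all genes tested. Groups did not overlap, in either direction, in 38.2% of all genes tested and in 2 of the 8 ephrins.

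**Figure D1:**
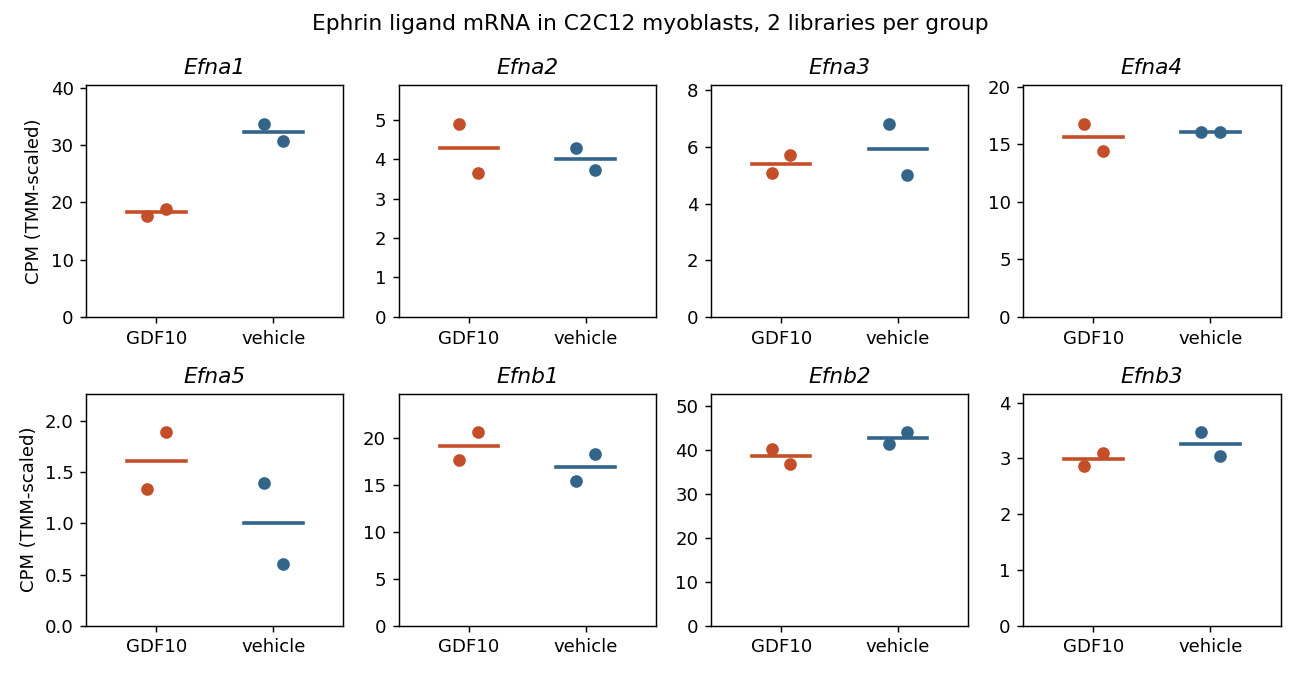
CPM of each ephrin gene (y axis, from 0, a separate scale per gene) in the GDF10 and vehicle libraries; points are libraries and horizontal lines are means of 2. Efna1 lies at 17.6 and 18.9 CPM with GDF10 and 33.8 and 30.7 CPM with vehicle, while the points of the other genes overlap or, for Efnb2, lie close together.

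Efna1 encodes ephrin-A1, a ligand of EphA2 that was first known as a cytokine-induced gene of human endothelial cells. It lies on the minus strand of chromosome 3 (ENSMUSG00000027954; mm10 chr3:89271733-89281142) and has 3 annotated transcripts, which the counts do not tell apart. It had 528 and 660 counts in the GDF10 libraries and 1208 and 909 counts in the vehicle libraries, or 17.6 and 18.9 CPM with GDF10 against 33.8 and 30.7 CPM with vehicle. Both GDF10 values thus lay well below both vehicle values, and the gap between the groups was larger than the gap within either. The means were 18.3 ± 0.930 CPM with GDF10 and 32.2 ± 2.19 CPM with vehicle (SD, n = 2 each), which is -0.82 on the log2 scale (SE 0.11, 95% interval -1.08 to -0.56). Its adjusted p in edgeR's quasi-likelihood test was 0.0640, which placed it at rank 27 of 15467 genes by p, just outside the 25 that were called. That p gives its place in the table only, since the family was proposed with it known. Efna1 passed 0.05 with DESeq2 (adjusted p = 9.16e-06), with upper quartile scaling in edgeR (0.0492), and without GDF10 replicate 1 (0.0479) or GDF10 replicate 2 (0.0185). It did not pass with limma-voom (0.164), without robust dispersions (0.156), without vehicle replicate 1 (0.324) or without vehicle replicate 2 (0.126). Its log2 fold change lay between -0.89 and -0.75 under all 15 alternatives. Most of these reused the same 4 libraries and could move it little, and the call did not hold across them.

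**Figure D2:**
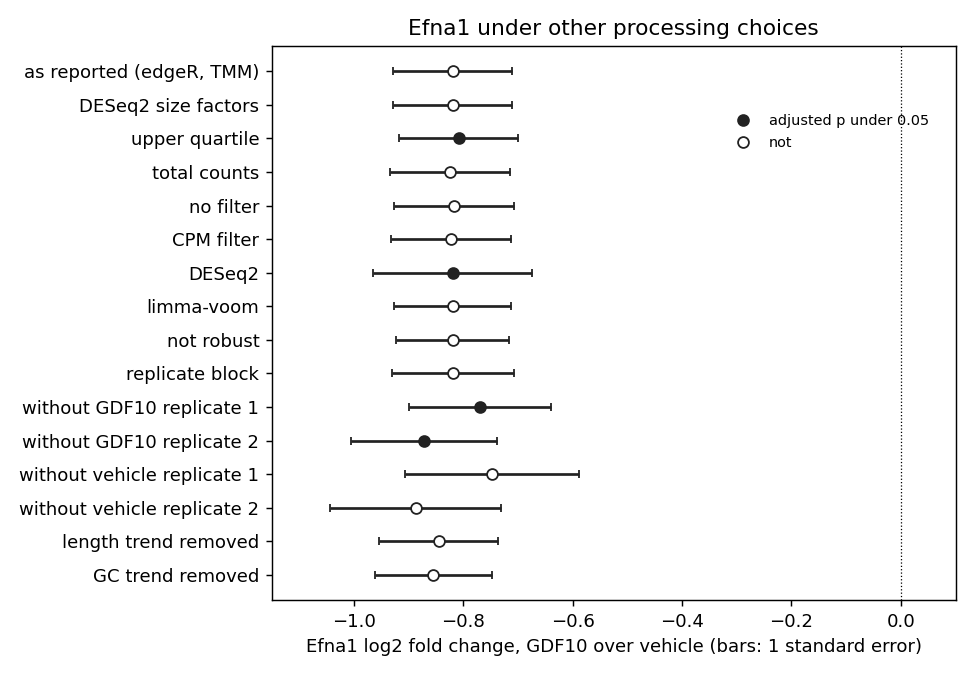
Efna1 log2 fold change of GDF10 over vehicle (x axis) under the reported fit and each of 15 alternatives (rows); bars are 1 standard error, filled points had an adjusted p under 0.05. All values lie between -0.89 and -0.75, and 4 of the 15 alternatives have filled points.

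Short and GC-rich genes tended to have higher fold changes in these libraries. The Spearman rank correlation across all genes tested was -0.26 between log2 fold change and exon length, and 0.26 between log2 fold change and GC content, given as a description because genes share their libraries. Efna1 is short, with 1830 exon bases where the median gene tested has 3839, and its longest transcript has 54.2% GC where the median is 49.7%. With each library's length trend removed its log2 fold change was -0.84, and with the GC trend removed it was -0.85.

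Efna1, Efna3 and Efna4 lie next to each other on the minus strand of chromosome 3. Efna3 (ENSMUSG00000028039; chr3:89313899-89322965) is separated from Efna1 by 32757 bases, and Efna4 (ENSMUSG00000028040; chr3:89333390-89338028) from Efna3 by 10425 bases. Efna4, a GPI-anchored ligand of EphA receptors, had 16.8 and 14.4 CPM with GDF10 and 16.1 CPM in both vehicle libraries, a log2 fold change of -0.04 (95% interval -0.34 to 0.26). Its groups overlapped. Efna3, which in mouse marks slow muscle fibres, had 5.07 and 5.73 CPM with GDF10 and 6.83 and 4.997 CPM with vehicle, a log2 fold change of -0.13 (-0.62 to 0.36), and its groups overlapped too. The interval of Efna1 does not meet that of Efna4, although the difference between them was not tested. The ratio of Efna1 to Efna4 counts within a library, which needs no scaling between libraries, was 1.05 and 1.31 with GDF10 and 2.10 and 1.91 with vehicle. The 25 other genes tested within 100 kb of the 3 genes had a median log2 fold change of 0.06, from -1.07 for Muc1, with means of 0.606 CPM with GDF10 and 1.297 CPM with vehicle, to 0.81 for Pygo2, and 0 of them were called. Slc50a1, the sugar transporter gene immediately downstream of Efna1, had 33.8 CPM with GDF10 and 32.6 CPM with vehicle (log2 fold change 0.05).

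The sequences around the RefSeq start sites of Efna1, Efna3 and Efna4 are shown because these 3 ligands lie side by side on one strand and Efna1 had the largest fold change of the 3. Each runs 5′ to 3′ on the minus strand from 250 bases before to 50 bases after a start (RefSeq, GRCm38.p6). Capitals mark matches on either strand to CAGAC, the core element bound by SMAD proteins, which reads GTCTG on the opposite strand, to GGCGCC, a GC-rich element bound by BMP SMADs, or to CAGCTG, an E-box of the kind bound by myogenic factors; no matches overlap in these windows.
Efna1 first start, chr3:89280902-89281201: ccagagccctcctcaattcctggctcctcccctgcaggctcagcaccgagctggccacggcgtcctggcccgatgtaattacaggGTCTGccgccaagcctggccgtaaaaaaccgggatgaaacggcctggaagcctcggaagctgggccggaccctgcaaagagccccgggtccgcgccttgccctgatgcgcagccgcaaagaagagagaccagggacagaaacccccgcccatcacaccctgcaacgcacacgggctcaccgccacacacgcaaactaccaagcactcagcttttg
Efna1 second start, chr3:89279596-89279895: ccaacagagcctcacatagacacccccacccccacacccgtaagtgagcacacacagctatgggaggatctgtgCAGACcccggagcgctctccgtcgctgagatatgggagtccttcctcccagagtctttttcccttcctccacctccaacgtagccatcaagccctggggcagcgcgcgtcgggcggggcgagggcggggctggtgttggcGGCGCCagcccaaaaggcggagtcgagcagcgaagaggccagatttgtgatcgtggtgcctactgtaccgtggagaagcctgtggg
Efna3 first start, chr3:89322890-89323189: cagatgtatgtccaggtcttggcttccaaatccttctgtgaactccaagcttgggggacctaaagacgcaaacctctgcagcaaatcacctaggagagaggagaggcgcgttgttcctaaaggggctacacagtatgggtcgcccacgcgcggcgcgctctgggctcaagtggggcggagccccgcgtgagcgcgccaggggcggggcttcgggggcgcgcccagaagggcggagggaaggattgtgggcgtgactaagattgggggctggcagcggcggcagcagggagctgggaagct
Efna3 second start, chr3:89321719-89322018: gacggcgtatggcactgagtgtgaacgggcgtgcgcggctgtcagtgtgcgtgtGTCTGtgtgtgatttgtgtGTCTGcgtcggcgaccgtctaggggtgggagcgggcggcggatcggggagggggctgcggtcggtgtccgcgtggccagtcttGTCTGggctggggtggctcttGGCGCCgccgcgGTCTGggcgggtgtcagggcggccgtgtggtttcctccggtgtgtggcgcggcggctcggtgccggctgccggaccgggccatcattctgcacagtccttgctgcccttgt
Efna4, chr3:89337979-89338278: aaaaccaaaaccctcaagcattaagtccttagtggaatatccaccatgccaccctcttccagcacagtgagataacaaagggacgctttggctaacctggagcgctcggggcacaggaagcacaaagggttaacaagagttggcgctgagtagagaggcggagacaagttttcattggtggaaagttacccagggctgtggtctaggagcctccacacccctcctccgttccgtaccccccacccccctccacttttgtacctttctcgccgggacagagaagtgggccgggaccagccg

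The first Efna1 window held 1 CAGAC match, the second held 1 CAGAC and 1 GGCGCC match, and the Efna4 window held 0 of either. Efna3, whose log2 fold change was -0.13, had 0 matches at its first start and 4 CAGAC and 1 GGCGCC at its second, more than either Efna1 window. Efna2 had 2 CAGAC and 1 GGCGCC, Efnb2 1 and 2, Efnb1 1 CAGAC, and Efna5 0 of either. CAGAC occurred in 49.6% of 32851 promoter windows of the same length over all genes, GGCGCC in 11.9% and CAGCTG in 16.3%. The RefSeq table matched 7 of the 8 ephrin genes, all but Efnb3, with 9 windows. GC content was 63.7% and 63.3% in the Efna1 windows, 64.0% and 69.7% in the Efna3 windows and 55.7% in the Efna4 window, against a median of 52.7% over all windows. CAGCTG was found in none of the 9 ephrin windows. A match is a run of letters and says nothing of binding in these cells.

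The remaining ephrin-A genes were sparsely counted. Efna2 (ENSMUSG00000003070; chr10:80179482-80190010), known with Efna5 for mapping retinal axons in mouse, had 147 and 127 counts with GDF10 and 153 and 110 counts with vehicle, with overlapping groups and a log2 fold change of 0.09 (95% interval -0.43 to 0.61). Efna5 (ENSMUSG00000048915; chr17:62604184-62881317), which encodes a repellent of growing axons, was the least abundant member. It had 40 and 66 counts with GDF10 and 50 and 18 counts with vehicle, or 1.33 and 1.89 CPM with GDF10 and 1.40 and 0.608 CPM with vehicle. The vehicle libraries differed from each other by more than the group means did, and the log2 fold change of 0.67 had a 95% interval of -0.36 to 1.70. It was 1.41 without vehicle replicate 1 and 0.21 without vehicle replicate 2.

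The ephrin-B genes were at similar levels in both groups. Efnb2 (ENSMUSG00000001300; chr8:8617434-8661242), whose protein marks arterial endothelium and pairs with EphB4, had the most counts of the family: 1206 and 1286 with GDF10, against 1475 and 1304 with vehicle. That was 40.2 and 36.9 CPM with GDF10 and 41.3 and 44.0 CPM with vehicle, groups that did not overlap but lay next to each other. The log2 fold change was -0.15 with a 95% interval of -0.37 to 0.08. Efnb1 (ENSMUSG00000031217; chrX:99136130-99148991), the ephrin altered in human craniofrontonasal syndrome, had 17.6 and 20.6 CPM with GDF10 and 15.4 and 18.3 CPM with vehicle, with overlapping groups and a log2 fold change of 0.18 (-0.15 to 0.51). Efnb3 (ENSMUSG00000003934; chr11:69554092-69560205), a midline barrier to growing corticospinal axons in mouse, had 2.87 and 3.10 CPM with GDF10 and 3.47 and 3.04 CPM with vehicle, a log2 fold change of -0.13 (-0.61 to 0.36).

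What the ephrin-B genes share and the ephrin-A genes lack is the coding sequence of the cytoplasmic tail, which ends in a motif that binds PDZ domain adaptors. The last 99 coding bases with the stop codon are shown for that reason, and because near-identical sequence could let reads of one gene be counted for another. They are read 5′ to 3′ along the transcript (GENCODE M21, mm10), with bases identical in all 3 genes in capitals.
Efnb1: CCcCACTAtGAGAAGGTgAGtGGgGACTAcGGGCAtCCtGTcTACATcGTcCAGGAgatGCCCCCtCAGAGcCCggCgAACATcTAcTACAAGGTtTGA
Efnb2: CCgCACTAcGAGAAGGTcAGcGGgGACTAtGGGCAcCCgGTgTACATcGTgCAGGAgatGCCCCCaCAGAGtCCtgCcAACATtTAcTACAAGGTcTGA
Efnb3: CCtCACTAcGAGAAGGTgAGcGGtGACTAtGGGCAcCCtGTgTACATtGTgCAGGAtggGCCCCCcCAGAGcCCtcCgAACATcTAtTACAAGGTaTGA

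Of these 99 bases, 77 were identical in all 3 genes, or 77.8%, while over their whole coding sequences pairs of ephrin-B genes were 63.3% to 65.4% identical. Pairs of genes of the same class were 60.5% to 71.6% identical and pairs across classes 58.7% to 70.2%. The longest run of identical bases shared by any pair of ephrin transcripts was 23, between Efna2 and Efna3, and for Efna1 it was 16, with Efna3. The ephrin-A coding sequences have 205 to 230 codons and the ephrin-B ones 336 to 345. In shared exon bases, Efna3 overlaps the antisense gene Gm15998 by 344 bases and Efna4 overlaps 4731419I09Rik by 168, and use of strand in counting is not given in the sources used here. Those partners had at most 46 and 45 counts in a library, and the other 6 ephrins shared no exon bases with another gene.

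Levels of different genes are compared in TPM, which divides counts by exon length. Efna1 had the highest mean TPM over the 4 libraries, 40.8, followed by Efna4 at 29.2, Efnb2 at 17.4, Efnb1 at 15.3, Efna3 at 6.85, Efna2 at 5.70, Efnb3 at 2.89 and Efna5 at 0.954. Of the 7 neighbouring pairs in that order, 4 were separated in all 4 libraries: Efna4 above Efnb2, Efnb1 above Efna3, Efna2 above Efnb3 and Efnb3 above Efna5. Efnb2 and Efnb1, and Efna3 and Efna2, overlapped. Efna1 and Efna4 overlapped as well, but only in the GDF10 libraries. Efna1 stood at 27.3 and 30.7 TPM with GDF10, beside 29.9 and 26.8 TPM for Efna4, and at 54.8 and 50.3 TPM with vehicle, beside 29.8 and 30.1 TPM for Efna4. Efna1 was thus the leading ephrin transcript with vehicle and level with Efna4 with GDF10.

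**Figure D3:**
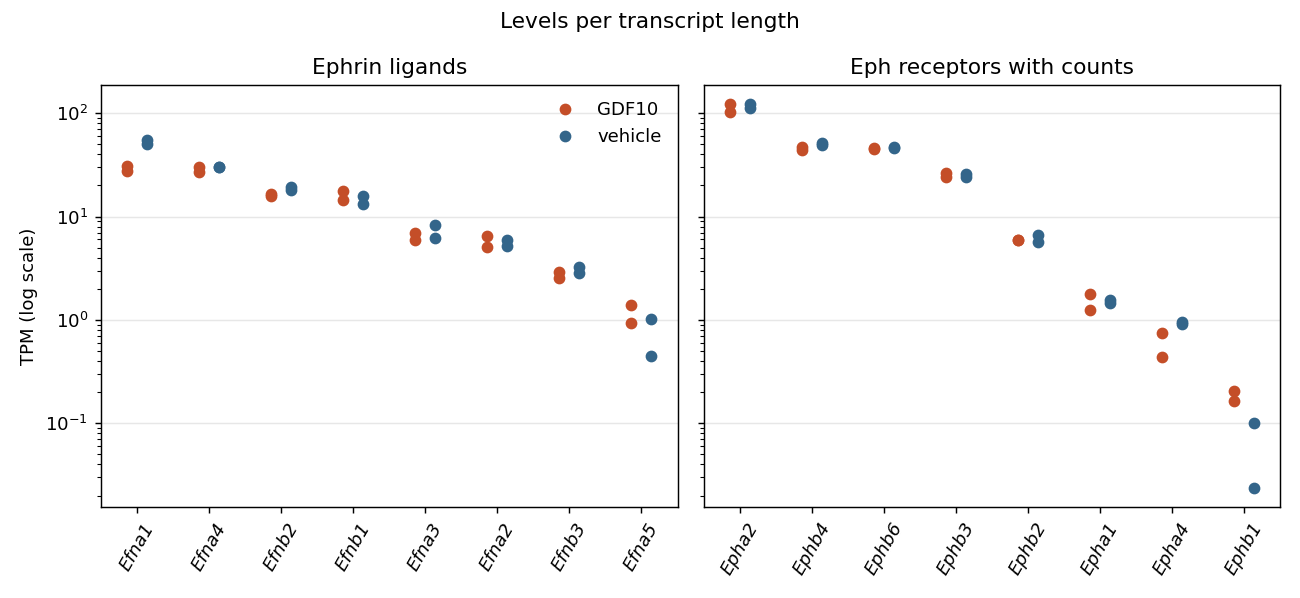
TPM (y axis, log scale) of the 8 ephrins and of the 8 Eph receptors with counts, ordered by mean; points are libraries, GDF10 left of vehicle. Efna1 lies at 27.3 and 30.7 TPM with GDF10 and 54.8 and 50.3 TPM with vehicle, and Epha2 is the highest receptor at 102.9 to 122 TPM.

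Summed over the 5 ephrin-A genes, TPM was 70.6 and 71.0 with GDF10 and 99.9 and 92.3 with vehicle. Efna1 made up 38.7% and 43.2% of that sum with GDF10 and 54.8% and 54.5% with vehicle. Efna4 made up 42.3% and 37.8% with GDF10 and 29.8% and 32.7% with vehicle. The 3 ephrin-B genes summed to 33.8 and 36.5 TPM with GDF10 and 34.3 and 38.0 TPM with vehicle, so the ephrin-B sums overlapped between groups while the ephrin-A sums, of which Efna1 is the largest or second largest part, did not. Efnb2 held 49.4% and 43.7% of the ephrin-B sum with GDF10 and 52.0% and 50.7% with vehicle.

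The receptors that ephrins bind were then read from the same table. Of 14 Eph receptor genes, 6 had 0 counts in all 4 libraries, Epha3, Epha5, Epha6, Epha7, Epha8 and Epha10, which allows each at most 0.0843 to 0.101 CPM in a library. The other 8 were tested: 0 were called higher and 0 lower by edgeR, 0 had an unadjusted p under 0.05, and 0 were called by DESeq2. Their median log2 fold change was -0.0039, beside 0.0029 over all genes tested. Epha2, an EphA receptor that ephrin-A1 binds, made up 97.9% to 98.4% of all EphA TPM and had 102.9 and 121 TPM with GDF10 and 113 and 122 TPM with vehicle. Its log2 fold change was -0.03 with a 95% interval of -0.23 to 0.17 (edgeR adjusted p = 0.962). Ephb4, the partner of ephrin-B2, had 44.3 and 47.5 TPM with GDF10 and 49.4 and 51.9 TPM with vehicle (log2 fold change -0.10, 95% interval -0.29 to 0.08). Ephb6, a receptor without kinase activity, averaged 45.6 TPM with GDF10 and 46.5 TPM with vehicle, Ephb3 25.04 and 24.96 TPM and Ephb2 5.90 and 6.14 TPM, all with log2 fold changes within 0.05 of 0. Epha1, which shares 236 exon bases with the far more abundant Zyx on the other strand, averaged 1.498 TPM with GDF10 and 1.51 TPM with vehicle.

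Epha4 and Ephb1 had larger fold changes on few reads. Epha4, which binds both ephrin classes and acts in limb motor axon guidance, had 37 and 70 counts with GDF10 and 93 and 72 counts with vehicle, a log2 fold change of -0.63 (95% interval -1.32 to 0.06, edgeR adjusted p = 0.825). Ephb1 had 12 and 17 counts with GDF10 and 2 and 7 counts with vehicle, a log2 fold change of 1.64 (-0.08 to 3.36, edgeR adjusted p = 0.825). Both intervals included 0, although the groups did not overlap in either gene. Of the 8 receptors tested, 2 (Epha4 and Ephb4) lay lower with GDF10 without overlap and 1 (Ephb1) higher. Over all genes tested, 19.4% and 18.8% did.

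**Figure D4:**
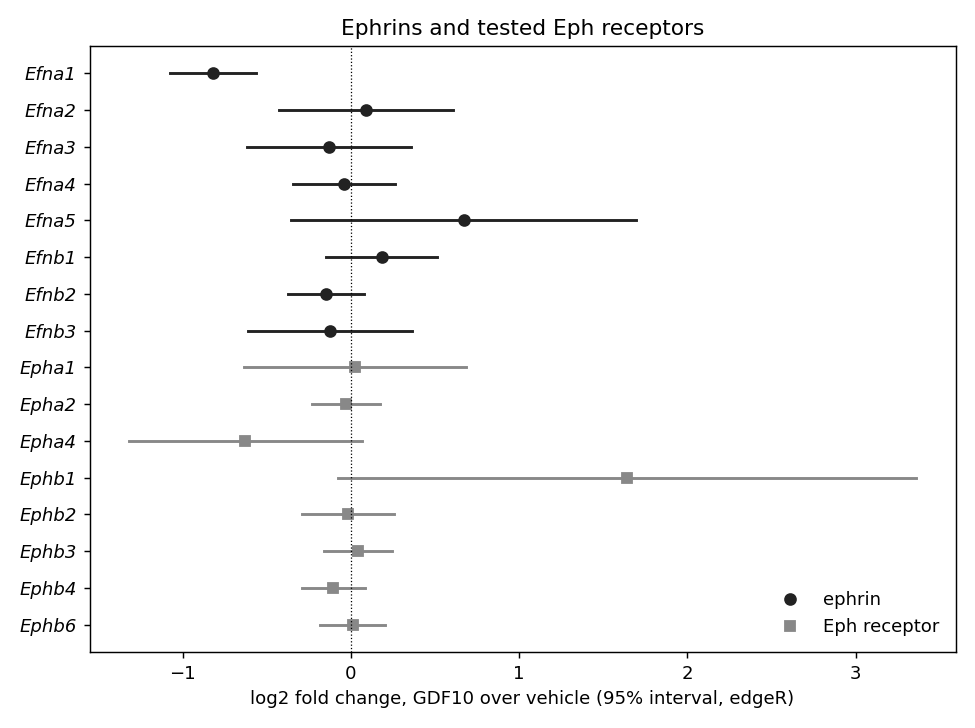
Log2 fold change of GDF10 over vehicle (x axis) with 95% intervals from edgeR for the 8 ephrins (circles) and the 8 tested Eph receptors (squares). The interval of Efna1, -1.08 to -0.56, lies apart from 0, and the other 15 intervals include 0.

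Genes that act beside ephrins and Ephs were read from a list of 63, of which 55 were tested. It holds the sheddase Adam10, which cleaves ephrin-A, adaptors and PDZ proteins of the ephrin-B tail, Src family kinases, exchange factors, and cytoskeletal effectors. edgeR called 0 of them in either direction. At an unadjusted p under 0.05 it placed 6 lower with GDF10, where 3.49% of all genes tested were, and 0 higher, where 2.44% were. That count of 6 moved when single libraries were left out, as did the count over all genes tested. DESeq2 called 0. The median log2 fold change was -0.09, beside 0.0029 over all genes tested, and -0.0099 without GDF10 replicate 1, -0.03 without GDF10 replicate 2, -0.07 without vehicle replicate 1 and -0.05 without vehicle replicate 2. These genes are long, with a median of 6365 exon bases against 3839. With the length trend removed their median was -0.03, beside 0.02 over all genes. At an unadjusted p under 0.05 in limma, 3 of the 55 were then lower, where 411 of 15431 genes were. With the GC trend removed the median was -0.05, beside 0.01 over all genes. By the same measure 4 of the 55 were lower, where 328 of 15431 genes were, and 1 was higher, where 347 were. The part of length or GC content in these values was not tested.

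The 4 partners of lowest p were Rock2, Rock1, Src and Itsn2. Rock2 and Rock1 encode kinases that drive contraction of actin and myosin. Rock2 had 119 and 143 CPM with GDF10 and 164 and 176 CPM with vehicle, a log2 fold change of -0.37 (edgeR adjusted p = 0.726), and Rock1 29.9 and 32.5 CPM with GDF10 and 37.2 and 41.6 CPM with vehicle, a log2 fold change of -0.34 (0.815). Src, a kinase that phosphorylates the ephrin-B tail, had 39.2 and 45.3 CPM with GDF10 and 50.8 and 52.1 CPM with vehicle, a log2 fold change of -0.28 (edgeR adjusted p = 0.825). Itsn2, of the intersectin exchange factors, had a log2 fold change of -0.31 (edgeR adjusted p = 0.825). In all 4 genes, which were picked for low p, the GDF10 libraries lay below the vehicle libraries, and GDF10 replicate 1 was the lowest. Of the 55 partners tested, 17 had both GDF10 libraries below both vehicle libraries and 11 had both above. Over all genes tested the shares were 19.4% and 18.8%, and the difference was not tested. Adam10 had 108 and 104 CPM with GDF10 and 113 and 119 CPM with vehicle, a log2 fold change of -0.13 (95% interval -0.31 to 0.04). Sdcbp, or syntenin, a PDZ partner of the ephrin-B tail, had 156 and 151 CPM with GDF10 and 148 and 143 CPM with vehicle (log2 fold change 0.08), and Nck2, the SH2 adaptor known as Grb4 in ephrin-B reverse signalling, 53.4 and 50.6 CPM with GDF10 and 48.8 and 51.4 CPM with vehicle (0.05).

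Single libraries stood apart in some partners, of which 3 are named here after their values were seen. Abl1 had 915 and 5487 counts with GDF10 and 5265 and 4625 counts with vehicle, so that its log2 fold change of -0.69 came from GDF10 replicate 1. Grb2 had 1664 and 3676 counts with GDF10 and 1949 and 1650 counts with vehicle, and its log2 fold change of 0.55 came from GDF10 replicate 2. Arhgef15, another exchange factor, had 19 and 20 counts with GDF10 and 25 and 4 counts with vehicle.

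The genes whose values over the 4 libraries lay closest to those of Efna1, by the Euclidean distance between log2 CPM centred on each gene's mean among 11590 genes of at least 1 CPM, were Zfp182 at 0.08, Tardbp at 0.09 and Rabep1 at 0.12. Tardbp, the gene of TDP-43, had 72.1 CPM in both GDF10 libraries and 127 and 120 CPM in the vehicle libraries. Zfp182, a zinc finger gene, had 3.27 and 3.55 CPM with GDF10 and 5.99 and 5.81 CPM with vehicle, and Rabep1, of early endosome fusion, 41.7 and 47.8 CPM with GDF10 and 76.5 and 70.7 CPM with vehicle. Within 0.2 lay 10 genes for Efna1 and 2579 for Efnb2, the ephrin of largest mean CPM. The distance is not scaled for the size of change, so a gene that changes little has more near neighbours. The closest to Efnb2 were Mex3c, Tmem120b and Tmem171, at 0.02, 0.03 and 0.03. With 4 libraries such closeness is a description of shape and size of change and nothing more.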

How the data were processed

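Per the labels' protocols, total RNA was isolated by a Trizol kit with DNase treatment; the extraction protocol names longissimus dorsi where the other labels name C2C12. The authors deposited raw whole-number read counts per Ensembl gene. Build mm10 and, in no stated order, HISAT2 2.0, StringTie 1.3.3b, DESeq2 1.12.4, bedtools 2.26.0, Trimmomatic 0.36 and FastQC 0.11.2 are named, per the submitters' processing notes. Which tool counted, with what annotation and strand setting, was not given in the sources used here.

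Symbols, positions and exon lengths came from GENCODE M21, which matched 51633 of 51826 identifiers. In R 4.3.3, edgeR 4.0.16 filtered genes by filterByExpr (15467 left), scaled by TMM and tested GDF10 against vehicle by quasi-likelihood with robust dispersions; p-values were adjusted over all 15467 genes. The test was tried on simulated data. TPM used exon union length. Alternatives used DESeq2 1.42.0, limma 3.58.1, other scalings, filters and thresholds, a replicate block and each library left out; length and GC trends (loess, span 0.3) were chosen after seeing the data. The ephrins, the receptor and partner lists and the tests were chosen with earlier results of these data known. Named genes were the ephrins, the Eph receptors, the 4 partners of lowest p and those sharing a role with a described member, and 3 genes nearest in pattern to each of 2 ephrins; neighbours on chromosome 3 were named after their values were seen.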

Additional observations from a re-analysis of the deposited data

How the results depend on the processing

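The count of called genes over the whole table was 25 and was 65 with DESeq2, 11 with limma-voom, 9 without robust dispersions, 9 with the GC trend removed and 6 at an adjusted p of 0.01. Leaving out 1 library gave 27 to 224, with the lone library of that group assumed to vary like the other 2. Of the Eph receptors, 0 were called under every alternative run. Of the signalling partners, 0 were called except when a GDF10 library was left out, which gave a range of 0 to 3. The genes were Grb2 without GDF10 replicate 1, and Abl1, Abl2 and Rock2 without GDF10 replicate 2. Those fits also had the most genes called over the whole table. Whether the share of partners called there differed from that of all genes was not tested. The log2 fold change of Efna1 stayed negative, from -0.89 to -0.75, and leaving out 1 library gave the same range; the 7 other ephrins were called under none of 15 alternatives. Without single libraries the sign differed for Efna2, Efna3 and Efna4, and Efna5 ranged from 0.21 to 1.41. By the length of the longest transcript Efna1 separated from Efna4 and Efnb2 from Efnb1, and Efnb2 (19.6 TPM) no longer separated from Efna4 (22.9 TPM). With the replicate block, the same-numbered libraries sharing only a number (correlation of their deviations 0.07), 23 genes were called and the log2 fold change of Efna1 was -0.82 (edgeR adjusted p = 0.0879). Depth limits genes with few counts, among them Efna5 at 18 to 66 and Ephb1 at 2 to 17 counts a library; counting floors cover counting error only.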
